A study of Mus musculus with 8 samples.

Results

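The nuclear genes of mitochondrial complex I were examined in brown adipose tissue (BAT), the thermogenic fat depot. Members were all genes of the deposited count table whose mouse symbol begins with Nduf followed by a, b, c, s, v, ab or af and a number, with pseudogenes left out. This gave 46 of 31053 genes. Of these, 36 encode subunits, 8 encode assembly factors, and 2 (Ndufa4 and Ndufa4l2) carry the name without being complex I subunits.

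RNA was sequenced in 8 libraries from C57BL6/J mice labelled as 8 weeks old, 4 with the genotype WT and 4 with the genotype Cd36KO. Cd36 encodes a fatty acid and lipoprotein scavenger receptor found on macrophages, endothelium and adipocytes. The labels give no Cre, floxed allele, treatment or diet. The study mentions both mice that lack CD36 in all cells and mice in which Csf1r-Cre deletes it in macrophages, and attributes the BAT transcriptome to the latter; the labels do not separate these. For the macrophage-restricted mice the study's figure legends give the same age as the labels and its methods another. The methods mention a fast before harvest ahead of their text on these mice and do not state it for them. All Cd36KO samples are numbered in the labels, but the column of a Cd36KO library in the count table carries no number. It was not tied to a sample and is called the unnumbered library. The study counts mice per group for its expression plots, but the labels do not tie a library to an animal, so the p-values measure the spread between these libraries, which may be technical.

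Each library held between 2679785 and 4097953 counts. The labels name the cell type as the stromal vascular fraction, but 9 markers of its cells summed to only 249 to 602 CPM (counts divided by the library total and scaled to parts per 1000000), against 4580 to 10546 CPM over both groups for 4 adipocyte markers, so the libraries are treated as BAT. Cd36 itself was at 2796, 2958, 3505 and 2412 normalized counts in the WT libraries and at 1926, 2109, 2384 and 1930 in the Cd36KO libraries. The groups did not overlap, but the log2 difference of -0.48 (SE 0.16) had an adjusted p of 0.0602 in DESeq2, so the transcript was not absent from the Cd36KO libraries and its decrease did not pass the threshold. The methods state that all mice were male. Xist was at 772 to 1588 counts and Y-linked genes at 0 to 3 counts per library, which is not the expression of male tissue. A gene total of Cd36 does not show whether the deleted exons were read.

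Markers of other tissues varied between libraries, and their sums were not tested. Summed over 8 genes, white fat markers were at 252, 1432, 1612 and 1407 CPM in WT replicates 1 to 4, and at 184 to 308 CPM in the Cd36KO libraries. Summed over 13 genes, skeletal muscle markers were at 21295, 4118, 309 and 3747 CPM in the WT libraries, and at 112 to 2549 CPM in the Cd36KO libraries. The groups overlapped in both sums. Brown adipocyte markers, summed over 5 genes, were at 4660 to 6229 CPM in WT and at 9047 to 10608 CPM in Cd36KO. In normalized counts the groups did not overlap for Ucp1, Cidea and Cox8b, while they overlapped for Dio2 and Elovl3. Cox8b is also counted with complex IV below. General adipocyte markers, summed over 4 genes, were at 7459 to 10546 CPM in WT and 4580 to 6953 CPM in Cd36KO. Of these 4 genes only Fabp4 had normalized counts that did not overlap between groups. Adipoq, Lipe and Plin1 overlapped, with log2 fold changes of -0.27, -0.19 and -0.45. Fabp4, a fatty acid binding protein, was at 12620 to 21855 normalized counts in WT and 5538 to 12209 in Cd36KO (log2 fold change -0.73, SE 0.25, adjusted p = 0.0762 in DESeq2). Stromal vascular markers were at 314 to 602 CPM in WT and 249 to 429 CPM in Cd36KO. In bulk tissue, fewer cells of a type and less RNA per cell cannot be told apart.

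Complex I (NADH:ubiquinone oxidoreductase) is the entry point of NADH electrons into the respiratory chain. Its peripheral arm reaches into the matrix, oxidizes NADH and passes electrons along iron-sulfur clusters to ubiquinone, and its membrane arm pumps protons. Core subunits do the catalysis, 7 of them encoded in the nucleus and 7 in mitochondrial DNA, while accessory subunits surround them and assembly factors help build the enzyme without remaining in it. In brown adipocytes, the proton gradient made by the chain is dissipated as heat by Ucp1.

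All 46 members were detected in every library, and 45 had at least 20 counts in each. Together they took 1.84, 1.90, 1.68 and 2.16% of the counts in WT replicates 1 to 4. In the Cd36KO libraries they took 2.59% (unnumbered), 2.28% (replicate 2), 2.45% (replicate 3) and 2.54% (replicate 4). The lowest Cd36KO share thus lay above the highest WT share, with WT replicate 4 nearest to it. Per kilobase of annotated exon, the highest mean levels over the 8 libraries were those of Ndufa2 (2691 CPM per kb), Ndufa5 (1370), Ndufb9 (1161), Ndufs6 (882) and Ndufb8 (783). Ndufb8 took the most counts of the members (2464 CPM). How far the library kit's counts scale with transcript length is not given in the sources used here. The exon length joins the exons of all annotated transcripts of a gene, 6883 bases for Ndufab1 and 8086 for Ndufs1. It is not the length of a single transcript, so ranks per kilobase can differ from ranks by counts. Among assembly factors, Ndufaf8 was at 152 CPM per kb, above several subunits, and the others ran from 4.40 (Ndufaf7) to 22.3 (Ndufaf3). Ndufa4l2 was the lowest member with 1.82 CPM per kb.

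In Cd36KO BAT, 7 complex I subunits were higher than in WT and no member was lower at an adjusted p under 0.05 (DESeq2 Wald test, adjusted by Benjamini-Hochberg over all genes tested). The 7 were Ndufs7 and Ndufs8, which hold iron-sulfur clusters close to the ubiquinone site, Ndufa2, Ndufa5, Ndufa12 and Ndufs6, accessory subunits of the peripheral arm, and Ndufa11, an accessory subunit of the membrane arm. Their increases ranged from 1.44-fold to 1.77-fold. These 7 of 45 members tested are 15.6%, where 1.42% of the 9619 genes tested were called higher and 1.53% were called lower. Called genes are more frequent among abundant transcripts. Among genes with a mean of at least 300 normalized counts, 6.10% of 1295 were called higher, against 7 of 37 members (18.9%). With edgeR's quasi-likelihood test no member passed, and 19 of 45 had an unadjusted p under 0.05, all of them higher in Cd36KO (42.2%, against 7.23% of genes). By edgeR 0.143% of 9793 genes passed in either direction, 14 in all. By limma on the deposited log2 values no member and no other gene passed, and 22 members had an unadjusted p under 0.05, all of them higher, against 7.95% of genes.

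**Figure D1:**
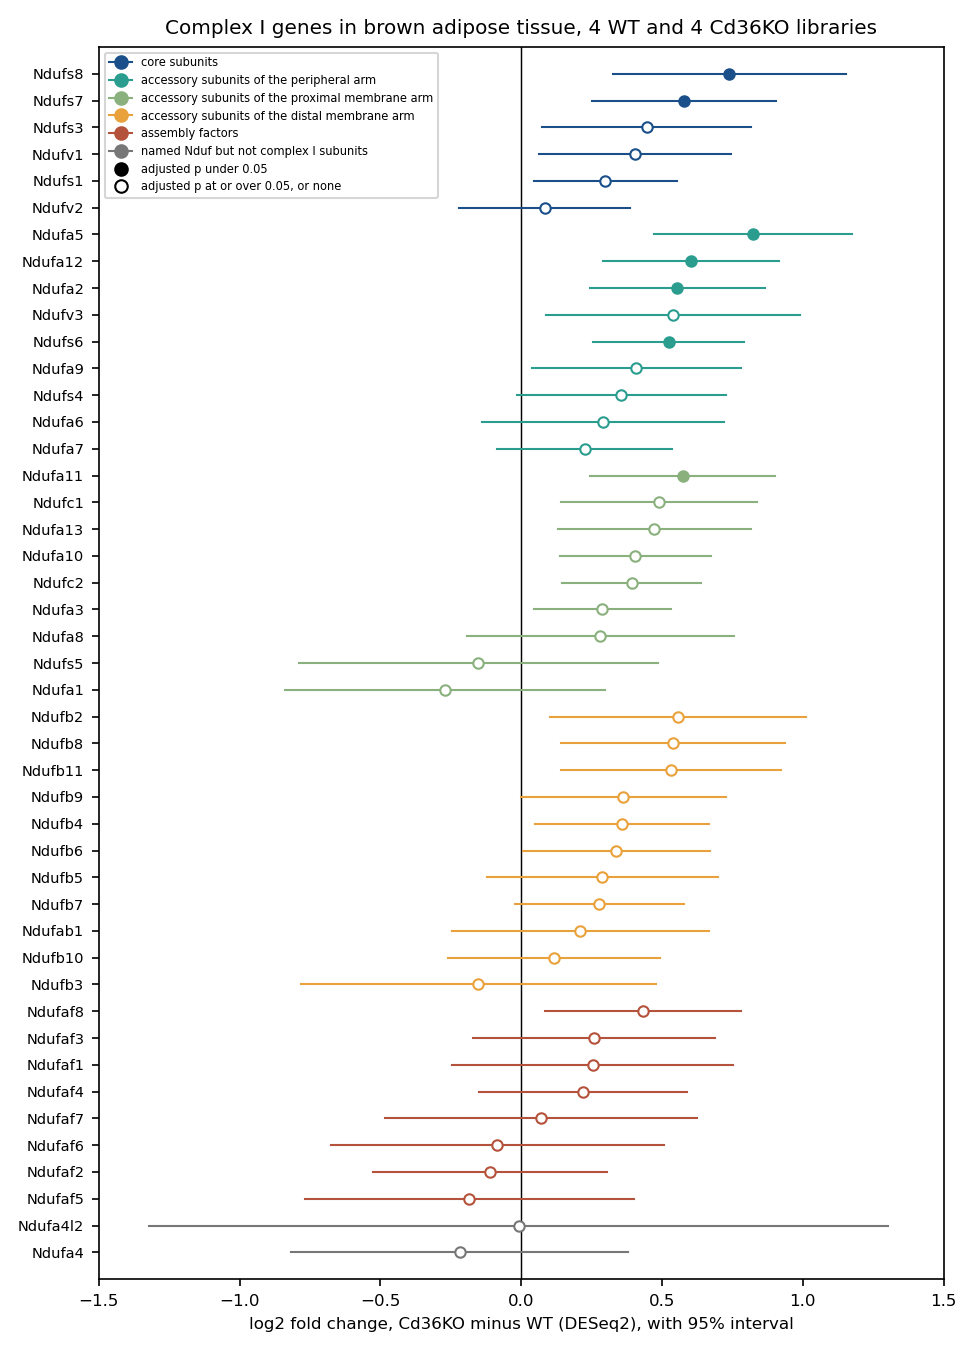
Log2 fold change of 45 members (1 of the 46 is not drawn) between Cd36KO and WT from DESeq2 (x axis, 0 means equal) each with its 95% interval, 4 libraries per group, ordered within role groups. Filled points are the 7 subunits with an adjusted p under 0.05, and 23 of the 45 intervals drawn lie wholly above 0 and 0 wholly below.

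Ndufa5, an accessory subunit in the peripheral arm (chromosome 6: 24518666-24528013, minus strand, GRCm38), showed the largest difference. Its normalized counts were 2485, 3280, 3290 and 3841 in WT replicates 1 to 4, and 6874, 4620, 5360 and 5946 in the unnumbered Cd36KO library and Cd36KO replicates 2 to 4. All Cd36KO values lay above all WT values. The log2 fold change was 0.82 (SE 0.18, adjusted p = 0.00143 in DESeq2, 0.104 in edgeR). It was the member that passed the threshold most often, in 15 of 17 alternative fits.

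Ndufs8 and Ndufs7 are core subunits, each of them close to the site where ubiquinone is reduced. Ndufs8 was at 543, 732, 815 and 1011 normalized counts in the WT libraries and at 1661, 1105, 1147 and 1263 in the Cd36KO libraries, a log2 fold change of 0.74 (SE 0.21, adjusted p = 0.0272 in DESeq2). Ndufs7 was at 1130, 1091, 1069 and 1369 in WT and at 2080, 1382, 1848 and 1651 in Cd36KO, a log2 fold change of 0.58 (SE 0.17, adjusted p = 0.0283 in DESeq2). WT replicate 4 was the highest WT library for both, and for Ndufs7 it lay just under the lowest Cd36KO value. The gene next to Ndufs8 among the members, Ndufv1, lies 94.6 kb away on chromosome 19 and encodes the flavin-bearing core subunit that takes electrons from NADH; its log2 fold change was 0.41 (SE 0.17, adjusted p = 0.205 in DESeq2).

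The other called subunits of the peripheral arm were Ndufa12, Ndufs6 and Ndufa2. Ndufa12, which takes the place of the assembly factor Ndufaf2 in the finished enzyme, was at 1120, 1397, 1423 and 1391 normalized counts in WT and at 2353, 1669, 1871 and 2197 in Cd36KO (log2 fold change 0.60, SE 0.16, adjusted p = 0.0141 in DESeq2). Ndufs6, a zinc-binding subunit added late in assembly, was at 2315, 1994, 1852 and 1953 in WT and at 3150, 2520, 3040 and 2957 in Cd36KO (0.52, SE 0.14, adjusted p = 0.0125). Ndufa2 was at 3418, 4251, 4193 and 3802 in WT and at 6976, 4736, 5306 and 5977 in Cd36KO (0.55, SE 0.16, adjusted p = 0.0273). For these transcripts WT replicate 4 lay among the other WT libraries. The annotation holds a processed pseudogene that shares a stretch of 402 bases with Ndufa12 at an identity of at least 97%, so the reads of Ndufa12 may not all be its own.

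Ndufa11, a membrane arm subunit at the contact with complex III in supercomplexes, was at 1210, 1128, 1151 and 1433 normalized counts in WT. In Cd36KO it was at 2348 in the unnumbered library and at 1616, 1692 and 1674 in replicates 2 to 4, a log2 fold change of 0.57 (SE 0.17, adjusted p = 0.0313 in DESeq2). The unnumbered library was the highest of the 8 for all 7 called subunits. Without it, 1 member (Ndufa5) passed, where 0.196% of genes were called higher. Exons of Ndufa2, Ndufs6 and Ndufa11 overlap those of Tmco6, Mrpl36 and Vmac on the opposite strand by 66, 30 and 70 bases, and whether counting used the strand is not given in the sources used here.

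**Figure D2:**
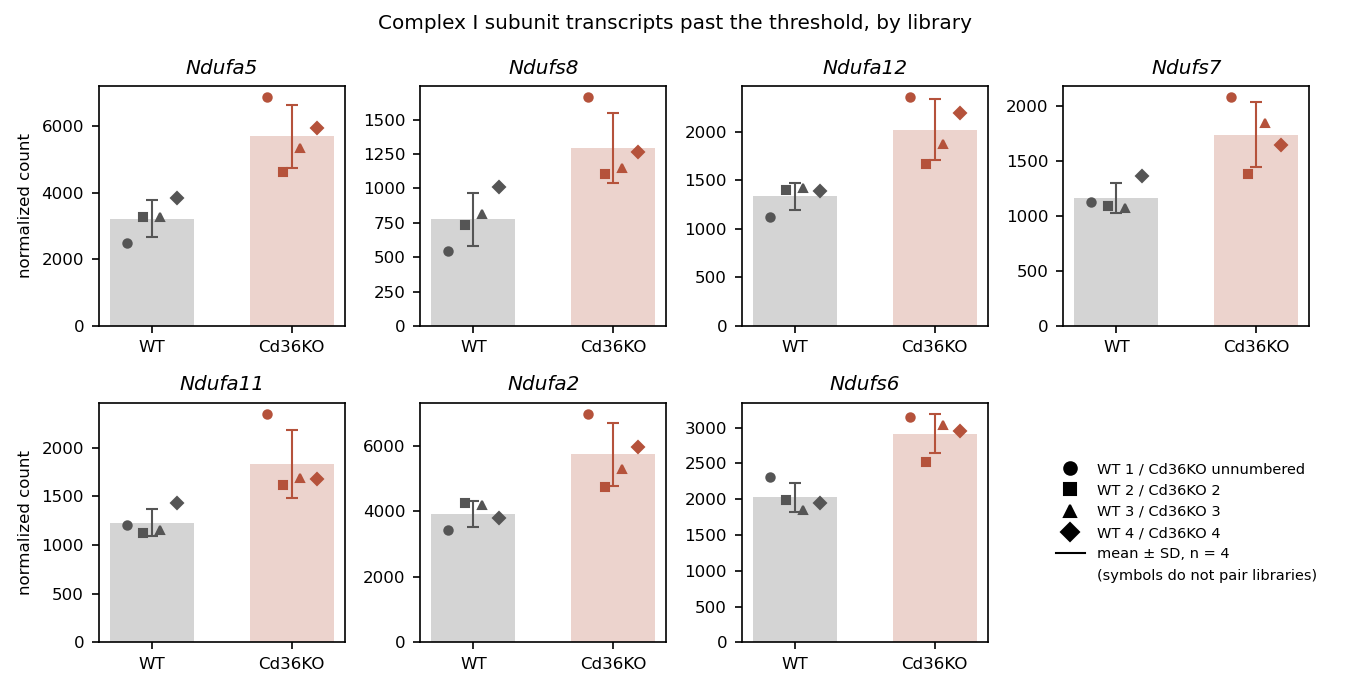
Normalized counts (y axis, from 0) of the 7 called subunits in each WT (grey) and Cd36KO (red) library, with bars for the mean and whiskers for 1 SD (n = 4 libraries per group). For each gene all 4 Cd36KO points lie above all 4 WT points, and the unnumbered Cd36KO library is the highest.

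Promoters were searched on both strands for the letters of 4 kinds of motif linked to respiratory genes. RefSeq promoter windows (250 bases before to 50 bases after each start, GRCm38.p6) were used for 40 of the 46 members and for 6 of the 7 called subunits, all but Ndufa2. The NRF1-type motif GCGCANGCG was in the windows of 10 of 40 members (25%), against 7.03% of the 27025 genes with a window. The YY1-type motif AAGATGGCG was in 6 of 40 (15.0%) against 1.64%, and the ETS-type motif CCGGAAG was in 6 of 40 (15.0%) against 9.93%. The ERR-type motif TCAAGGTCA was in 0 of 40 members and 0.466% of genes, and its core AAGGTCA, which is part of it, was in 3 of 40 (7.5%) against 5.38%. The matches in called subunits are given in 30-base stretches, written 5′ to 3′ in the direction of the gene, with the match in capitals. The first 3 hold the NRF1-type motif before the RefSeq start of the window (chr6:24527697-24527726, minus strand; chr13:73328478-73328507, minus strand; chr17:56717692-56717721, plus strand), where Ndufa5 holds it as written, Ndufs6 on the opposite strand (so the capitals are its reverse complement) and Ndufa11 on both strands in an overlap. In the gene annotation, whose starts can lie further upstream, all 30 bases of the Ndufa5 and Ndufs6 stretches are in exons of these genes and 0 of those of Ndufa11. The next 2 hold the YY1-type motif within 50 bases after the RefSeq start (chr10:80249463-80249492, plus strand; chr13:73328433-73328462, minus strand). The last holds the ETS-type motif on the opposite strand, also after the start (chr19:3912741-3912770, minus strand).
Ndufa5: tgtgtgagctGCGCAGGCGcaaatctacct
Ndufs6: gactgctgtgCGCCTGCGCcggcacttggt
Ndufa11: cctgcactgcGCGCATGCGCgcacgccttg
Ndufs7: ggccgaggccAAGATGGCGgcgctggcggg
Ndufs6: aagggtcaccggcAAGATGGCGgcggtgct
Ndufs8: ttaggctccgcCTTCCGGttgaaccgcatc

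Ndufa12 had no match in its window. The NRF1-type motif was also in windows of 7 members that were not called. The log2 fold changes were 0.36 for Ndufb4, 0.29 for Ndufa6, 0.28 for Ndufa8, 0.22 for Ndufaf4, 0.12 for Ndufb10, -0.15 for Ndufs5 and -0.18 for Ndufaf5. A match is a string of letters and does not show binding. The members were compared with all genes that have a window, which were not matched for expression or base composition. Whether the motifs relate to the changes was not tested.

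Grouped by role, of 7 nuclear core subunits, 2 were called and all 7 had a positive log2 fold change, with a median of 0.45. The smallest difference was that of Ndufv2, a core subunit with an iron-sulfur cluster, at 1191, 991, 910 and 1238 normalized counts in WT and 994, 1196, 1251 and 1148 in Cd36KO. Its log2 fold change was 0.08, with a 95% interval from -0.22 to 0.39, and its groups overlapped. Per kilobase, Ndufv1 had the highest level of the core subunits (305 CPM per kb) and Ndufs1 the lowest (42.6 CPM per kb). By counts Ndufs3 was the lowest of them, at 160 CPM against 344 CPM for Ndufs1. Ndufs1, the largest subunit, had all Cd36KO values (1226, 1070, 1308 and 1142) above all WT values (985, 939, 901 and 1034), with a log2 fold change of 0.30 (SE 0.13, adjusted p = 0.209 in DESeq2).

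Of 9 accessory subunits of the peripheral arm, 4 were called and all 9 had a positive log2 fold change, with a median of 0.52. The smallest was that of Ndufa7, 0.23 (95% interval -0.08 to 0.53). Ndufs4, a subunit whose loss causes a mitochondrial encephalopathy, had the lowest level of them per kilobase (90.8 CPM per kb). It was at 542, 662, 612 and 900 normalized counts in WT and at 1037, 815, 759 and 863 in Cd36KO, so WT replicate 4 exceeded all Cd36KO libraries but the unnumbered one.

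Of 9 accessory subunits of the proximal membrane arm, 1 was called and 7 had a positive log2 fold change, with a median of 0.39. Ndufa10, a subunit related to nucleoside kinases, was at 3423, 3334, 3574 and 4439 normalized counts in WT and at 4743, 4838, 5257 and 4723 in Cd36KO (0.41, SE 0.14, adjusted p = 0.0765 in DESeq2). Ndufc2 was at 948, 875, 860 and 1033 in WT and at 1236, 1137, 1272 and 1229 in Cd36KO (0.39, SE 0.13, adjusted p = 0.0602). Ndufa3, with the highest level per kilobase of this group (618 CPM per kb), was at 1881, 1753, 1557 and 1909 in WT and at 2188, 2029, 2250 and 2200 in Cd36KO (0.29, SE 0.12, adjusted p = 0.209). The groups did not overlap for any of these 3, yet none passed the threshold. Ndufs5, at 27 to 54 normalized counts, had the lowest level of any subunit (15.5 CPM per kb), and the annotation holds a pseudogene sharing 319 bases with it.

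Of 11 accessory subunits of the distal membrane arm, 0 were called in DESeq2 (5 at an unadjusted p under 0.05) and 10 had a positive log2 fold change, with a median of 0.34. The largest was that of Ndufb2, at 0.56 (SE 0.23, adjusted p = 0.188 in DESeq2). Ndufb8, a subunit often used as a protein marker of assembled complex I, was at 5182, 5593, 5635 and 8961 normalized counts in WT and at 11475, 7938, 8807 and 8669 in Cd36KO. Here WT replicate 4 lay above 3 of the 4 Cd36KO libraries, and the log2 fold change of 0.54 (SE 0.20) had an adjusted p of 0.130 in DESeq2. Without WT replicate 4, Ndufab1, Ndufb11, Ndufb2, Ndufb5, Ndufb6, Ndufb8 and Ndufb9 passed, where 5.58% of the genes tested were called higher. Differences between the role groups were not tested. Per kilobase, Ndufb9 had the highest level of the distal membrane arm subunits and Ndufab1 the lowest (46.7 CPM per kb). By counts Ndufb8 was the highest of them and Ndufb4 the lowest, at 183 CPM against 322 CPM for Ndufab1. Ndufb7 was the only one of the 11 with groups that did not overlap, at 656 to 914 in WT and 931 to 1090 in Cd36KO (0.28, SE 0.15, adjusted p = 0.377). Exons of Ndufb5 overlap those of Mrpl47 by 616 bases on the opposite strand. In all, 18 of the 46 members share exon bases with another gene of the table.

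Of 8 assembly factors, 0 were called in DESeq2 (1 at an unadjusted p under 0.05) and 5 had a positive log2 fold change, with a median of 0.15. Ndufaf8, which is required for the hydroxylase Ndufaf5, had the highest level per kilobase and the largest difference, at 308, 319, 340 and 390 normalized counts in WT and 552, 368, 497 and 414 in Cd36KO (0.43, SE 0.18, adjusted p = 0.174 in DESeq2). Ndufaf5 itself, which modifies Ndufs7, had the lowest value of the group, -0.18, with a 95% interval from -0.77 to 0.40. A further 12 assembly factors without an Nduf name gave 0 calls in DESeq2 (1 at an unadjusted p under 0.05) and a median of 0.15, with Tmem186 the largest at 0.50 (SE 0.24, adjusted p = 0.283).

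Neither of the 2 members that are not complex I subunits passed the threshold. Ndufa4, now counted as a subunit of complex IV, had a log2 fold change of -0.22 (SE 0.30, adjusted p = 0.804 in DESeq2). Ndufa4l2, a related gene known for its induction by low oxygen, had 4 to 10 counts per library and no adjusted p. No member was at or below 3 counts in any library.

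In all, 12 of 45 members tested had 4 Cd36KO values above the 4 WT values (26.7%), against 4.83% of the genes tested. None had all Cd36KO values below all WT values, against 3.93% of the genes tested. At an unadjusted p under 0.05 in DESeq2, 24 of 45 members were higher in Cd36KO (53.3%), against 7.69% of the genes tested. The median log2 fold change was 0.35 over the 46 members and 0.40 over the 36 subunits. Over all genes tested it was -0.01, and over those with at least 300 normalized counts 0.11.

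WT replicate 4 stood apart from the other WT libraries in these genes. It was the highest WT library for 39 of 46 members and for 30 of 36 subunits, and it reached the lowest Cd36KO value for 32 of 46. The other WT libraries reached it for 8, 11 and 9 members. The median over members of the log2 deviation from the WT mean was -0.18, -0.05, -0.09 and 0.31 in WT replicates 1 to 4, and 0.44, 0.22, 0.41 and 0.37 in the unnumbered Cd36KO library and replicates 2 to 4. By this measure WT replicate 4 lay above Cd36KO replicate 2. Its white fat (1407 CPM) and brown adipocyte markers (5805 CPM) were within the range of the other WT libraries, its adipocyte markers were the highest of the 8 (10546 CPM), its stromal vascular markers were the lowest in WT (314 CPM), and its share of mitochondrially encoded counts was the highest of the 8 (32.1%).

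Without WT replicate 4, 23 of 43 members tested passed in DESeq2 (53.5%), all higher, the 7 among them, and 5.58% of the 5881 genes tested were called higher. Those added include Ndufb8, Ndufa10 and Ndufab1, the mitochondrial acyl carrier protein. Leaving out other libraries in turn gave 6 calls without WT replicate 1, 1 without WT replicate 2 (Ndufa5) and 2 without WT replicate 3, where 1.06%, 0.884% and 0.355% of the genes tested were called higher. There was 1 call without Cd36KO replicate 4, with 4 without Cd36KO replicate 3 and 9 without Cd36KO replicate 2, against 1.09%, 1.34% and 3.78% of genes. Ndufa5 passed in each of these fits. Skeletal muscle markers were highest in WT replicate 1, which was the lowest library for 24 of 46 members, and with a muscle score as a covariate 3 members passed (Ndufa5, Ndufa11 and Ndufs6), with 1.11% of genes called higher. With a white fat score as a covariate, an alternative added after the data were seen, 17 of 45 passed, 5 of the 7 among them (Ndufs6 and Ndufs7 did not pass), and the share of genes called higher was 8.24%, against 1.42% with no covariate. The white fat score was 3.37, 5.01, 5.16 and 5.53 in WT replicates 1 to 4 and 2.57 to 3.39 in the Cd36KO libraries. Only WT replicate 1 lay within the Cd36KO range, so this score nearly follows genotype and the fit can hardly separate them. The part of the marker differences in the changes of the members was not tested. Ucp1 differed by a log2 fold change of 0.82 (SE 0.20, adjusted p = 0.00843 in DESeq2).

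**Figure D3:**
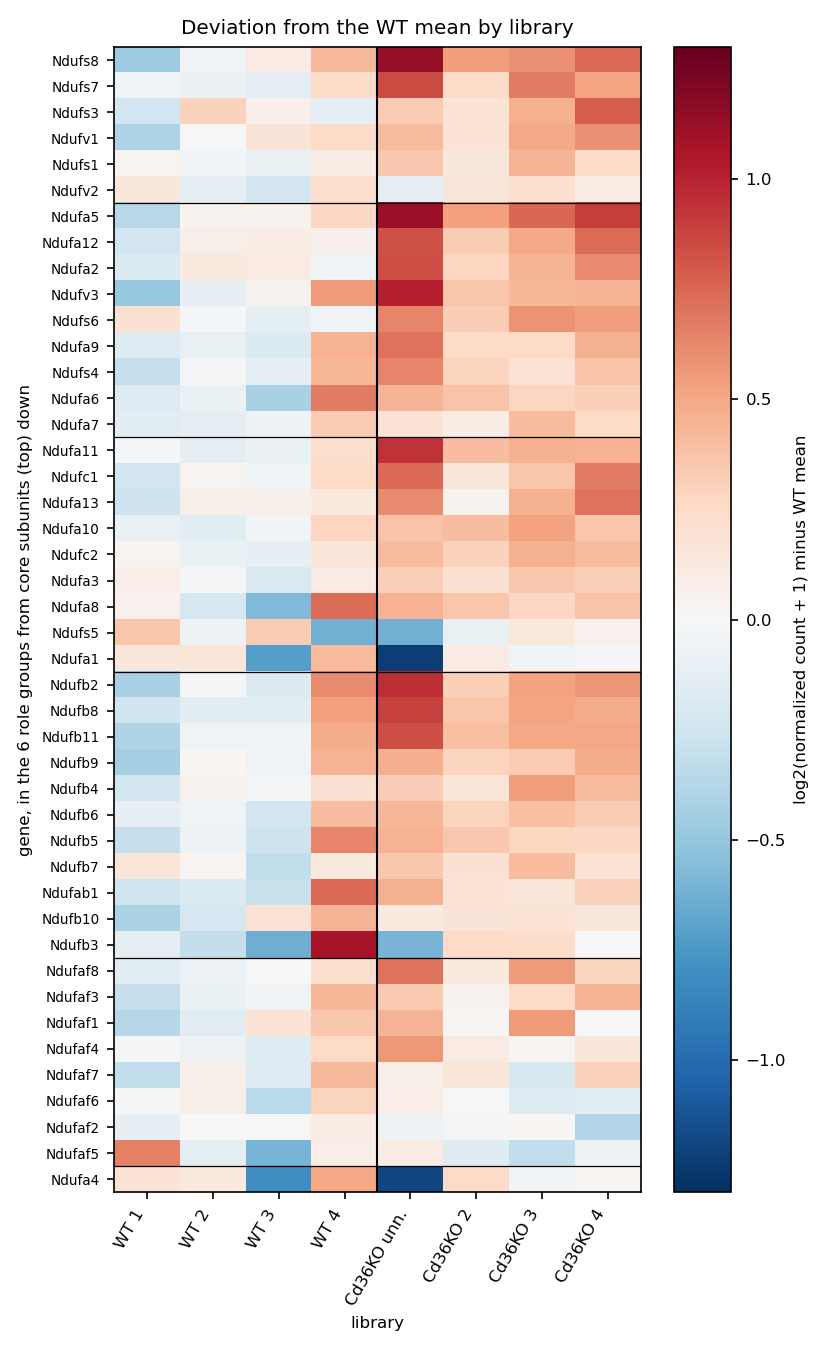
Log2 deviation of 44 members, Ndufa4l2 not among them, from their WT means (colour) in each library (x axis), in role groups separated by lines. The column of WT replicate 4 is above the WT mean for most members, as are the 4 Cd36KO columns, and Ndufa1 and Ndufa4 are darkest blue in the unnumbered Cd36KO library.

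Within WT, the coefficient of variation over the 4 libraries ran from 5.95% for Ndufs1 among subunits to 59.8% for Ndufb3, a small membrane arm subunit. Ndufb3 was at 1511, 1339, 1064 and 3486 normalized counts in WT and at 1086, 1978, 1946 and 1650 in Cd36KO, so WT replicate 4 held more than any other library. Its log2 fold change of -0.15 became 0.35 without that library. Within Cd36KO the coefficient ran from 1.55% for Ndufb10 to 34.2% for Ndufa1 among subunits. Over the 37 members with a mean of at least 300 normalized counts the median was 18.7% in WT and 13.8% in Cd36KO, close to 18.9% and 14.9% over all 1295 such genes. Without WT replicate 4 the WT median fell to 11.8% for the members, under that of Cd36KO, and to 13.9% for all such genes.

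Ndufa1, a small membrane-anchored subunit needed early in assembly, and Ndufa4 shared a pattern over the libraries. Ndufa1 was at 762, 764, 418 and 915 normalized counts in WT and at 293, 741, 659 and 679 in Cd36KO. Ndufa4 was at 732, 705, 369 and 919 in WT and at 284, 766, 633 and 659 in Cd36KO. Both were lowest in the unnumbered Cd36KO library and next lowest in WT replicate 3, whereas in the unnumbered library the called subunits were highest. Across the 8 libraries, which share their depth and group structure, the log2 values of the 2 genes had a Pearson r of 0.99, against -0.44 between Ndufa1 and Ndufa5 and 0.98 between Ndufa5 and Ndufa12. Of 9619 genes tested, 394 (4.10%) had both libraries below the other 6, and 3 of 45 members did (6.67%). Besides Ndufa1 and Ndufa4 this was Ndufb3, whose log2 values had a Pearson r of 0.74 with those of Ndufa1. Ndufa1 is on chromosome X (37187588-37191163) and Ndufa4 on chromosome 6 (11900292-11907497). Among subunits, the log2 fold change of Ndufa1 was the lowest, -0.27 (95% interval -0.84 to 0.30).

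**Figure D4:**
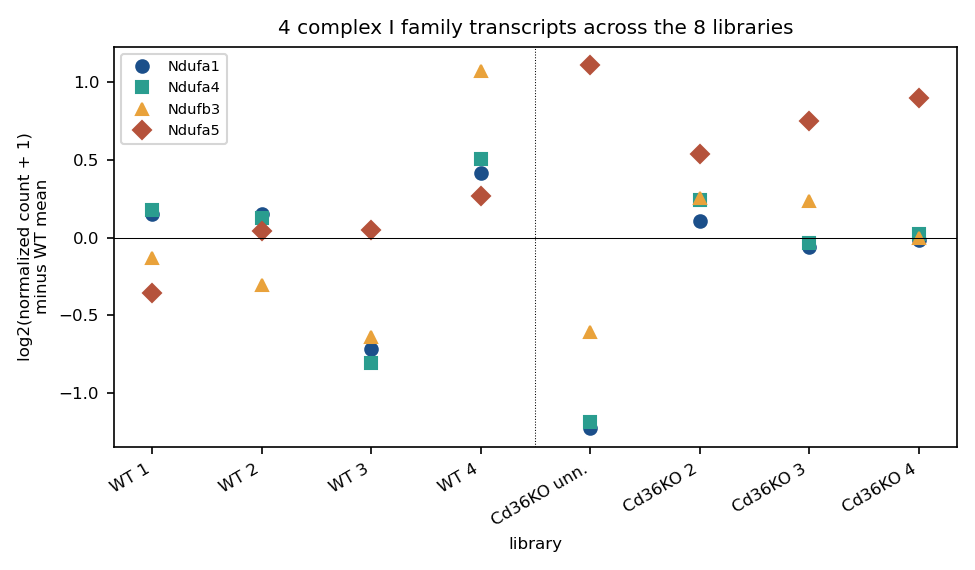
Log2 deviation from the WT mean (y axis) of Ndufa1, Ndufa4, Ndufb3 and Ndufa5 in each library (x axis). Ndufa1 and Ndufa4 lie together and lowest in the unnumbered Cd36KO library, where Ndufa5 is highest, and Ndufb3 is highest in WT replicate 4.

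The 7 complex I subunits encoded in mitochondrial DNA gave 0 calls in DESeq2 (1 at an unadjusted p under 0.05). Mt-Nd1 was at 96120, 76632, 80619 and 94115 normalized counts in WT and at 123888, 100061, 118720 and 100270 in Cd36KO, which do not overlap, but its log2 fold change of 0.35 (SE 0.14) had an adjusted p of 0.171 in DESeq2. Mt-Nd4 took the most counts, with 236367, 438357, 588542 and 672581 in WT and 656258, 548710, 575773 and 525998 in Cd36KO (0.25, SE 0.26, adjusted p = 0.714). Mt-Nd2 was lower in Cd36KO on average, with a log2 fold change of -0.28 (SE 0.18, adjusted p = 0.482), mt-Nd5 was at -0.11 (SE 0.17), mt-Nd3 at 0.24 (SE 0.34) and mt-Nd6 at 0.59 (SE 0.41). Mt-Nd4l had counts in only 2 libraries. The share of all mitochondrially encoded counts was 28.5% ± 3.90 (SD, n = 4) in WT and 30.4% ± 1.73 (SD, n = 4) in Cd36KO (exact permutation test, two-sided, p = 0.457).

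The other nuclear-encoded complexes gave calls in the same direction, with 1 exception. In complex II, 1 of 4 genes was called higher (Sdhb, 0.78, SE 0.21). In complex III, 4 of 9 were called higher (Uqcr10 at 0.80, Uqcrc1 at 0.57, Cyc1 at 0.56 and Uqcrh at 0.52), with a median of 0.47 for the list. In complex IV, 3 of 15 were called higher (Cox7a2 at 0.68, Cox7a1 at 0.59 and Cox8b at 0.50). In complex V, 4 of 16 with counts were called higher (Atp5o at 0.78, Atp5l at 0.73, Atp5k at 0.62 and Atp5j2 at 0.51) and Atp5g1, one of the genes for the membrane ring of the ATP synthase, was called lower at -1.49 (SE 0.31, adjusted p = 0.000716 in DESeq2). Of 10 regulators of respiratory genes, 0 were called in DESeq2 (2 at an unadjusted p under 0.05). By edgeR none of the genes of these lists passed. Among the regulators, the largest value was that of Prdm16, a cofactor of brown fat identity, at 0.78 (SE 0.25, adjusted p = 0.0572 in DESeq2). Ppargc1a, a coactivator of mitochondrial biogenesis, was at 0.51 (SE 0.23, adjusted p = 0.231), and Esrra, Nrf1 and Gabpa were at -0.06, -0.28 and -0.32. Whether complex I differed from these lists was not tested.

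**Figure D5:**
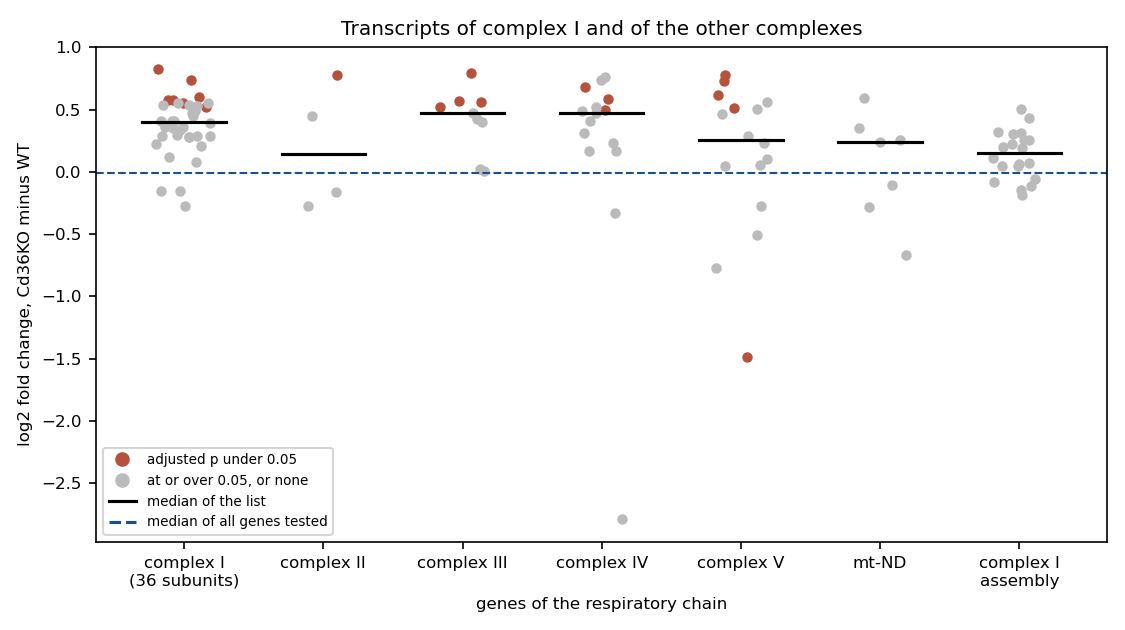
Log2 fold change between Cd36KO and WT (y axis) of each gene of the respiratory complexes and of complex I assembly, with list medians as black lines and the median of all genes tested as a dashed line. Red points passed an adjusted p of 0.05 in DESeq2, and the complex I subunits have a median of 0.40.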

How the data were processed

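Libraries were made from 50 ng of total RNA with the NEGEDIA Digital mRNA-seq service and sequenced single-end. The authors deposited raw counts per gene and log2 values for 8 libraries. Per the labels, the submitters' processing notes name Trimmomatic, HISAT2 and DESeq2 with GRCm38 (mm10), and the study's list of software also holds the first 2, whereas its text on bulk RNA-seq names bbduk, STAR and HTSeq-count. The deposited log2 values equalled log2(count divided by the median-of-ratios size factor, plus 1), within rounding.

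From the counts, normalized counts and fold changes were computed with DESeq2 1.42.0 in R 4.3.3 (Wald test, genotype as the only term, Benjamini-Hochberg adjustment, threshold 0.05), the tool of the study's methods. Intervals are 1.96 SE. Alternatives were edgeR 4.0.16 (quasi-likelihood), limma 3.58.1 on the log2 values, other factors, filters and covariates, a replicate block, and leaving out each library. Fits were tested on simulated data. Symbols, coordinates and exon lengths came from GENCODE M21, which named 31011 of 31053 genes. Copies were searched with blastn 2.17.0 (at least 75 bases, 97% identity). Of 9941 annotated processed pseudogenes, 32 are in the count table. The columns named 1 Cd36KO library without a number, so it was used as a Cd36KO library only. No 2 libraries agreed within sampling noise (chi-square per degree of freedom at least 6.43).

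The members and lists were chosen with earlier results of these data known. Genes named were members past the threshold, members with groups that did not overlap, those with the largest rise and fall and the highest and lowest level per kilobase in each role group, Ndufa4, Ndufa4l2, Cd36, Ucp1, mitochondrially encoded ND genes, and listed genes of the other complexes past the threshold. Ndufb8, Ndufb10, Tmem186, the adipocyte markers, uncalled members with the NRF1-type motif and the regulators were named in addition, after their values were seen. One member counted in the totals is not reported here by name. The annotation table of samples was not used.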

Additional observations from a re-analysis of the deposited data

Results flagged for a closer look

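In groups of 4 libraries, a library was marked when its gap to the nearest of the others passed Dixon's 95% critical share of the group's range, on the log2 scale. This marked 9 of 92 groups (46 members in 2 genotypes), where chance at about 1 in 20 would mark 4.6. WT replicate 4 was marked as high in 4 of them, Ndufab1 at 1492 normalized counts (others 734 to 792), Ndufa9 at 1121 (others 725 to 769), Ndufa7 at 1172 (others 849 to 892) and Ndufb8 at 8961 (others 5182 to 5635). WT replicate 1 was marked as low for Ndufa12 at 1120 (others 1391 to 1423) and Ndufa13 at 1630 (others 2051 to 2137). The unnumbered Cd36KO library was marked as high for Ndufa11 at 2348 (others 1616 to 1692) and Ndufv3 at 3748 (others 2373 to 2519), and as low for Ndufa1 at 293 (others 659 to 741).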

How the results depend on the processing

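The 7 members called higher by DESeq2 were also called with TMM factors and with a filter of 10 counts in 4 libraries, and 5 of them without independent filtering, where 290 of 10290, 293 of 9567 and 171 of 17361 genes were called in either direction. With the muscle score as a covariate 3 were called, with the white fat score (added after the data were seen) 17, of which 5 were among the 7, and with edgeR and with limma 0. Leaving out 1 library gave 1 to 23 called members. No alternative called a member lower. Of the genes in the lists of other complexes, assembly and regulators, 13 were called, against 7 without independent filtering, 3 with the muscle score, 20 with the white fat score, 0 with edgeR, 0 with limma and 2 to 25 when leaving out 1 library. The median log2 fold change of members stayed between 0.29 and 0.50 when leaving out a library. It was 0.68 with the white fat score, which nearly follows genotype. Cd36 passed with the muscle score (-0.67) and without WT replicate 4, with a range of -0.56 to -0.38 when leaving out 1 library.

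Whether equal replicate numbers pair the libraries is not known. Correlations of deviations were -0.05, 0.23 and 0.10 for replicates 2, 3 and 4, but were not set against those of unmatched libraries. The unnumbered library was not matched to a WT library. A replicate block on the 6 numbered libraries gave 1 called member of 46, beside 222 of 11111 genes, 4 called list genes and a member median of 0.29. The same 6 without it (added later) gave 2 members, beside 262 of 11110 genes, 3 list genes and a median of 0.26. With the block, fold changes turned sign for Ndufa1 (0.057), Ndufa4 (0.14), Ndufaf5 (0.036), Ndufaf7 (-0.022), Ndufb3 (0.14) and Ndufs5 (0.15), and in the same 6 without it for Ndufa4 (0.047), Ndufaf5 (0.014), Ndufaf7 (-0.025) and Ndufs5 (0.12). With the muscle score they turned for Ndufaf5 (0.31), Ndufaf6 (0.079) and Ndufb10 (-0.015), and with the white fat score for Ndufa4l2 (0.56), Ndufaf2 (0.00060), Ndufaf6 (0.069), Ndufb3 (0.27) and Ndufv2 (-0.082). The cause was not tested. Leaving out 1 library turned the sign of 7 uncalled members, whose values then ran from -0.42 to 0.011 (Ndufa4), -0.35 to 0.13 (Ndufa4l2), -0.35 to 0.082 (Ndufaf5), -0.18 to 0.018 (Ndufaf6), -0.034 to 0.23 (Ndufaf7), -0.0071 to 0.28 (Ndufb10) and -0.34 to 0.35 (Ndufb3).

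Depth limits the low members: Ndufa4l2, at 4 to 10 normalized counts, had an SE of 0.67 on its log2 fold change, and Ndufs5, at 27 to 54, one of 0.33.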
